A study of Ictidomys tridecemlineatus with 15 samples.

Results

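The arrestin-domain genes Arrdc3, Arrdc1, Arrdc2 and Arrdc4 and their relative Txnip were looked for by symbol among the 6324 transcription units of a liver GRO-seq dataset, of which 4705 carry a single gene name. Of the 5 names, 3 had a unit, and each of these, Arrdc3, Arrdc4 and Txnip, stood alone in its unit. Arrdc1 and Arrdc2 matched no unit name, alone or merged with a neighbor, and were not analysed here. The family was chosen by the measured fall of Arrdc3 between interbout arousal and entrance into torpor, so that every value of Arrdc3 in those 2 states is given as a description, without a test. The relatives Arrdc4 and Txnip were tested in all comparisons.

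Global run-on sequencing (GRO-seq) lets polymerases caught mid-gene in isolated nuclei extend their RNA with a labeled nucleotide, and its reads report transcription in progress rather than the RNA present in the cell. Nuclei came from frozen livers of 14 female 13-lined ground squirrels from a laboratory breeding colony, each library from a separate animal, and the run-on was done at the same temperature for all. The states were summer active (SA, 3 animals, warm and before the hibernation season), interbout aroused (IBA, 3 animals, winter hibernators that had rewarmed), entrance (Ent, 3 animals, cooling into torpor), early torpor (ET, 3 animals, cold) and late torpor (LT, 2 animals, cold). Apart from SA, all were winter animals staged by body temperature and time, and none carried a drug treatment or genetic change in the labels. The paper names implanted telemeters, ibuttons and rectal probes as its ways of reading body temperature. LT replicate 2 was not analysed here.

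Alpha-arrestins are adaptor proteins. They hold an arrestin fold that binds membrane cargo and PPxY motifs that recruit ubiquitin ligases of the NEDD4 family, so that the cargo is ubiquitinated and moved into endosomes. Arrdc3 is known for its part in trafficking of the beta2-adrenergic receptor and in energy balance, Arrdc4 and Txnip lower glucose uptake by acting on the transporter GLUT1, and Txnip also binds thioredoxin. Txnip and Arrdc4 are classical targets of the glucose-sensing factors ChREBP and MondoA with their partner Mlx.

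Between 3713883 and 8884763 reads per library fell on the units, and the member with the fewest reads in any library, Arrdc4 in LT replicate 1, had 137. Levels are CPM, the counts scaled to equal library size after TMM normalization. CPM is thus relative to the other units of a library, and a change in total transcription between states does not show in it. The paper states that library-size scaling hides differences in total activity between stages. All differences, rises and falls given here are relative in this sense. The liver label matched its hepatocyte markers. Of 10 hepatocyte markers, 7 had a unit of their own, and their summed CPM was 11542 to 22257 in SA, 9714 to 13825 in IBA, 7208 to 9227 in Ent, 3616 to 5946 in ET and 4552 to 7025 in LT. Of 7 endothelial markers, 4 had a unit, with summed CPM of 211 to 266 in SA, 228 to 259 in IBA, 223 to 264 in Ent, 140 to 220 in ET and 141 to 158 in LT. Among cholangiocyte markers Sox9 alone had one, at 25.9 to 41.0 CPM in SA, 16.5 to 36.0 in IBA, 29.8 to 46.1 in Ent, 10.9 to 18.1 in ET and 7.07 to 10.1 in LT. No marker of Kupffer cells, stellate cells or lymphocytes had a unit of its own, so that these cells could not be followed. The hepatocyte sum was lower in every cold liver than in every SA and IBA liver, and the means of the members described below were lower there too. The sum reached its top value in SA, and the mean of Txnip was also highest there, whereas the means of Arrdc3 and Arrdc4 were highest in IBA. The part of the hepatocyte sum in the values of the members was not tested. In whole liver, fewer nuclei of a cell type and less transcription per nucleus cannot be told apart.

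The season of collection also went with the state. All ET animals came from the second collection season, all LT animals from the first and all IBA animals from the third, whereas SA and Ent were mixed. SA replicate 1 and Ent replicates 1 and 2 came from the first season, and SA replicates 2 and 3 and Ent replicate 3 from the third. Season and state cannot be told apart in any comparison with ET. LT and IBA shared no season either, so that for this pair a season term is set by the SA and Ent livers alone. It takes the season difference to be the same in every state, which cannot be checked in LT or IBA. For the other comparisons a fit with season as a term is given where it changed a call of a member or moved a count of listed genes.

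In the HiC_Itri_2 assembly the Arrdc3 unit runs along Itri1 (plus strand) from 173249041 to 173263457 and spans 14417 nt of gene body. Arrdc4 runs along Itri5 (plus strand) from 140933150 to 140947591 and spans 14442 nt. Txnip runs along Itri11 (minus strand) from 20844032 to 20850131 and spans 6100 nt. The units cover exons and introns together, after removal of the stretch just downstream of the start site, and their ends had been extended by the authors where GRO-seq reads ran further. Averaged over the 14 libraries and divided by unit length, Arrdc3 stood at 24.6 CPM per kb, above 98.9% of all units. Txnip stood at 17.1 CPM per kb, above 97.8%, and Arrdc4 at 4.94 CPM per kb, above 81.7%.

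Arrdc3 was transcribed strongly in the warm livers and weakly in the cold ones. It stood at 687, 149 and 1043 CPM in the SA livers (replicates 1, 2 and 3) and at 1335, 496 and 626 CPM in the IBA livers. In Ent it was at 129, 86.9 and 127 CPM, in ET at 22.2, 52.8 and 71.2 CPM, and in LT at 79.1 and 55.2 CPM. SA replicate 2 was far below the other SA livers, and close to the highest Ent liver. Every IBA liver was above every Ent liver, and every Ent liver above every ET and LT liver.

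From IBA to Ent, the drop that chose the gene, the mean went from 819 ± 452 CPM (SD, n = 3) to 114 ± 23.8 CPM (SD, n = 3). The fitted log2 fold change was -2.84, or 7.15-fold lower in Ent, and 2 of the 6324 units had a lower one. With each library left out in turn the log2 fold change stayed between -3.10 and -2.29. Among the animals of the third season alone, the 3 IBA livers stood at 496 to 1335 CPM and the single Ent liver at 127 CPM. The difference continued at a smaller size into the cold, with a log2 fold change of -1.23 from Ent to ET. Between SA and IBA, where the livers overlapped, it was 0.38, and its sign turned without SA replicate 2 (-0.081) or IBA replicate 1 (-0.16). From LT to IBA it was 3.61, with 45 of the 6324 units higher.

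The comparisons of Arrdc3 that use neither IBA nor Ent were tested with edgeR's quasi-likelihood test and Benjamini-Hochberg adjustment over all units, with a threshold of 0.05. Arrdc3 was 12.9-fold lower in ET than in SA (log2 fold change -3.69, SE 0.65, adjusted p = 0.00049), in a comparison that called 53.2% of all units. It was 9.34-fold lower in LT than in SA (log2 fold change -3.22, SE 0.75, adjusted p = 0.0036), where 49.2% of all units were called. Even the low SA replicate 2 stood above all 5 cold livers in both comparisons. The log2 fold change from SA to ET was -4.15 without that liver and -3.10 without SA replicate 3, and that from SA to LT was -3.69 and -2.64. Within the first season, the one SA liver stood at 687 CPM against 55.2 and 79.1 CPM in LT. Between ET and LT the log2 fold change was 0.46 (95% interval -0.97 to 1.89, adjusted p = 0.938), and the livers overlapped.

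**Figure D1:**
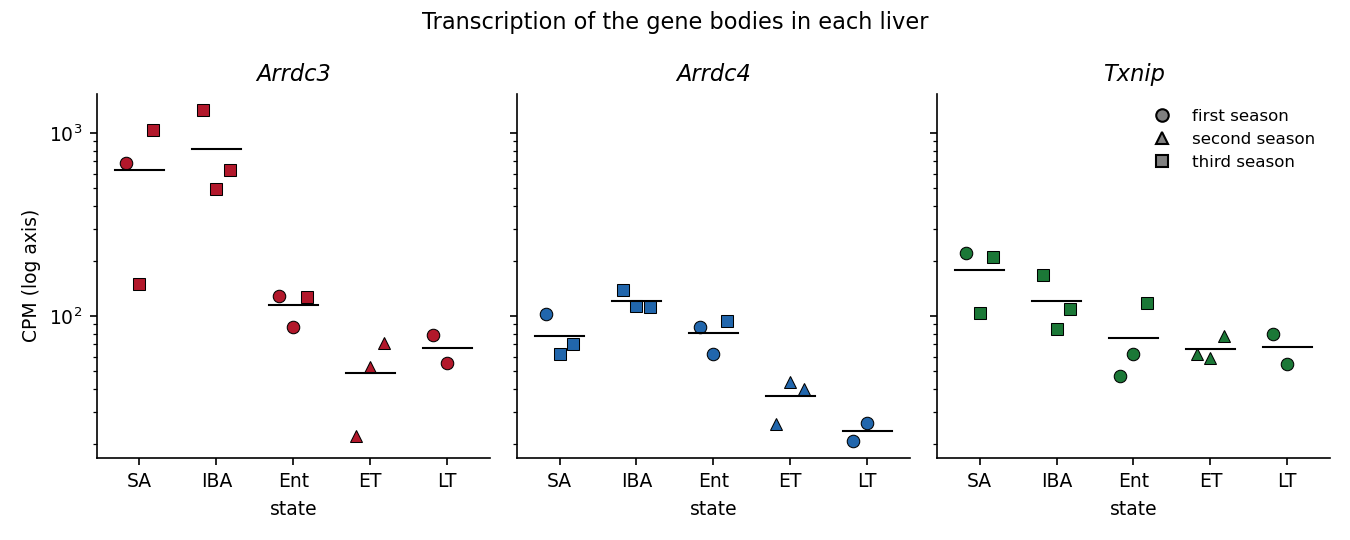
Each point is 1 liver, with CPM on a log axis, the states on the horizontal axis, marker shape for the collection season and a bar for the state mean. Arrdc3 goes from 496 to 1335 CPM in IBA to 86.9 to 129 in Ent, the mean of Arrdc4 is highest in IBA and lowest in LT, and that of Txnip is highest in SA.

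Arrdc4, which like Txnip is a glucose-sensing target, was transcribed most in the rewarmed livers and least in the cold ones. It was at 102, 62.4 and 70.2 CPM in SA, and at 138, 114 and 112 CPM in IBA. In Ent it was at 87.4, 61.8 and 94.3 CPM, in ET at 25.8, 43.8 and 40.1 CPM, and in LT at 20.7 and 26.2 CPM. The IBA livers were above all others, the SA and Ent livers lay over the same range, and every cold liver was below every warm or cooling one.

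Arrdc4 differed among the 5 states (adjusted p = 8.3e-05), as did 62.0% of all units. Its means were 121.5 ± 14.6 CPM (SD, n = 3) in IBA and 81.2 ± 17.1 CPM (SD, n = 3) in Ent. The log2 fold change from IBA to Ent was -0.58 (SE 0.24, adjusted p = 0.111), which did not pass the test although the livers did not overlap. Of the 2 relatives 0 were called at this transition by edgeR, against 16.1% of all units. The unadjusted p was 0.030 for Arrdc4 and 0.0936 for Txnip, and DESeq2 called neither. From SA to IBA the log2 fold change of Arrdc4 was 0.63 (SE 0.24, adjusted p = 0.141), again without overlap, in a comparison that called 5.22% of units. Neither relative was called there by edgeR or DESeq2, with unadjusted p of 0.0202 for Arrdc4 and 0.139 for Txnip in edgeR.

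Arrdc4 fell from Ent into the cold. It was 2.23-fold lower in ET (log2 fold change -1.15, SE 0.24, adjusted p = 0.0046), where 28.8% of all units were called, and 3.46-fold lower in LT than in Ent (log2 fold change -1.79, SE 0.29, adjusted p = 0.0012), where 27.0% were called. It was 3.33-fold lower in ET than in IBA (adjusted p = 0.0001), in a comparison that called 55.2% of units. From LT to IBA it rose 5.17-fold (log2 fold change 2.37, SE 0.29, adjusted p = 5.7e-05), in a comparison that called 49.8% of units. With season as a term that rise was 2.51 on the log2 scale (adjusted p = 0.0007). The term does not separate season from state here, since it rests on the SA and Ent livers. In these Arrdc4 went opposite ways. Its mean CPM was 102 in the first and 66.3 in the third season in SA, but 74.6 and 94.3 in Ent.

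No difference of Arrdc4 was detected between the summer and the cooling livers. The log2 fold change from SA to Ent was 0.05 (95% interval -0.46 to 0.57, adjusted p = 0.895), and its sign turned when single libraries were left out. Relative to SA it was 2.14-fold lower in ET (log2 fold change -1.10, adjusted p = 0.0023), where 53.2% of all units were called. It was 3.33-fold lower in LT than in SA (log2 fold change -1.74, adjusted p = 0.00044), where 49.2% were called. From ET to LT the log2 fold change was -0.64 (SE 0.28, adjusted p = 0.534), in a comparison that called 0.269% of units. Neither relative was called there by edgeR or DESeq2, with unadjusted p of 0.0407 for Arrdc4 and 0.953 for Txnip in edgeR. Within the first season Arrdc4 was at 102 CPM in the SA liver, at 61.8 and 87.4 CPM in the Ent livers and at 20.7 and 26.2 CPM in the LT livers.

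Txnip, the thioredoxin-binding member, had its highest state mean in SA, with overlap between SA and IBA livers. It stood at 221, 105 and 211 CPM in SA, and at 167, 85.3 and 109 CPM in IBA. In Ent it was at 47.1, 62.1 and 119 CPM, in ET at 62.1, 58.9 and 77.6 CPM, and in LT at 79.8 and 54.9 CPM. SA replicate 2 was again the lowest SA liver, and the cold livers lay within the range of the Ent livers. Ent replicate 3 was above the other Ent livers and above every ET and LT liver.

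Txnip differed among the 5 states (adjusted p = 0.0133), as did 62.0% of all units. At the threshold of 0.05 its calls between pairs of states were those of Ent, ET and LT against SA. From SA to IBA its log2 fold change was -0.58 (adjusted p = 0.392), which was not called. It was 2.71-fold lower in ET than in SA (log2 fold change -1.44, SE 0.37, adjusted p = 0.0059), where no livers overlapped and 53.2% of all units were called. It was 2.66-fold lower in LT (log2 fold change -1.41, SE 0.43, adjusted p = 0.0156), also without overlap, where 49.2% were called. This second call was lost without LT replicate 3 (adjusted p = 0.123) and with season as a term (adjusted p = 0.0502).

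From SA to Ent the log2 fold change of Txnip was -1.24 (SE 0.37, adjusted p = 0.0304), in a comparison that called 23.5% of units, although SA replicate 2 lay below Ent replicate 3. The call was lost without SA replicate 1 (adjusted p = 0.0824), SA replicate 3 (0.0876), Ent replicate 1 (0.0901) or Ent replicate 2 (0.102). Within the first season Txnip was at 221 CPM in the SA liver and at 47.1 and 62.1 CPM in the Ent livers. Within the third season the SA livers were at 105 and 211 CPM and the Ent liver at 119 CPM, between them.

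At the steps of the torpor-arousal cycle Txnip did not pass the test. Its log2 fold change at entrance was -0.66 (95% interval -1.46 to 0.13, adjusted p = 0.231), and -0.20 from Ent to ET (95% interval -0.99 to 0.60, adjusted p = 0.722). The Ent to ET value was 0.28 without Ent replicate 3. From ET to LT it was 0.02 (95% interval -0.86 to 0.91, adjusted p = 0.998). From LT to IBA it was 0.84 (95% interval -0.07 to 1.74, adjusted p = 0.113), although the lowest IBA liver, at 85.3 CPM, was above the highest LT liver, at 79.8 CPM. From IBA to ET it was -0.86 (adjusted p = 0.0636), and DESeq2 called it (adjusted p = 0.0468). That comparison passed the threshold without SA replicate 2 (adjusted p = 0.0396), IBA replicate 2 (0.0436), Ent replicate 1 (0.0499) or Ent replicate 3 (0.0327).

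**Figure D2:**
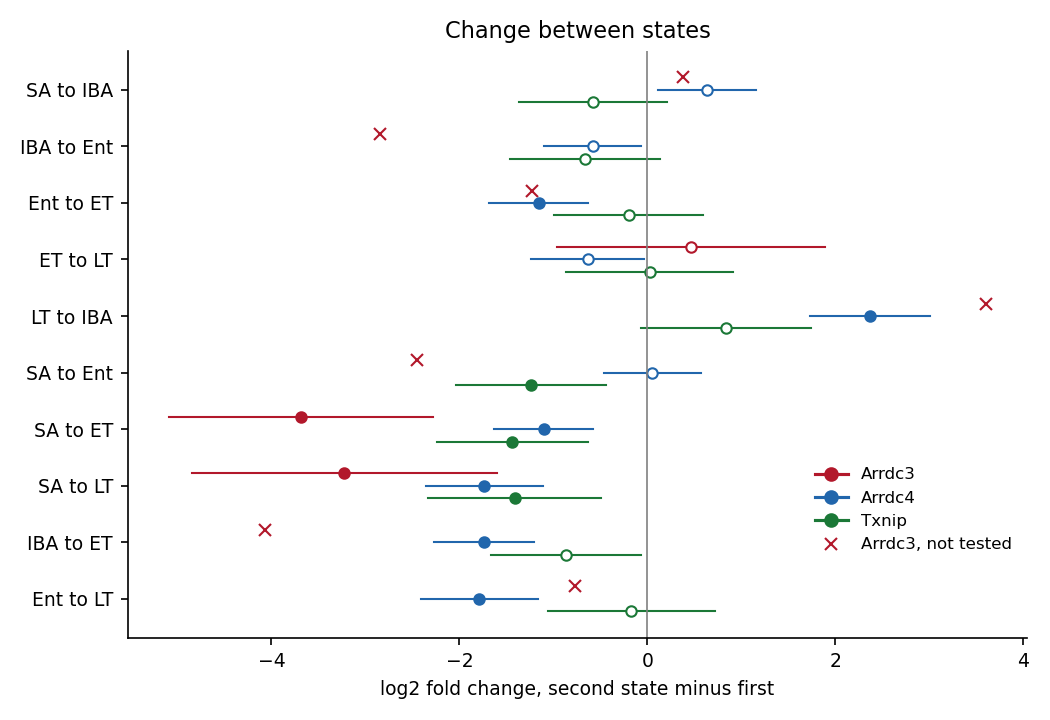
Log2 fold change between pairs of states, second minus first, with 95% intervals for tested values, filled points for adjusted p at or under 0.05 and crosses for untested Arrdc3 values. Arrdc4 lies at 2.37 from LT to IBA and -1.15 from Ent to ET, whereas the filled Txnip points are Ent, ET and LT against SA, from -1.24 to -1.44, and SA to IBA is open at -0.58.

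The rank of the genes within a liver also differed between states when levels were divided by unit length. In the IBA livers Arrdc3 stood at 34.4 to 92.6 CPM per kb, Txnip at 13.98 to 27.4 and Arrdc4 at 7.76 to 9.58, and this order held in each IBA liver. In the 5 cold livers Txnip was the highest of these genes in every one, at 9.66 to 12.7 CPM per kb in ET and 9.01 to 13.1 in LT. Arrdc3 in those livers was at 1.54 to 4.94 CPM per kb in ET and 3.83 to 5.48 in LT. Arrdc4 was at 1.78 to 3.03 CPM per kb in ET and 1.43 to 1.82 in LT. In Ent replicates 2 and 3 Txnip was already above Arrdc3, at 10.2 and 19.4 against 6.03 and 8.82 CPM per kb, and in SA replicate 2 it was at 17.1 against 10.3.

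The ratio of Txnip to Arrdc4, which no scaling between libraries can move, was higher in the cold livers than in the IBA and Ent ones. Per kb it was 2.86, 1.77 and 2.31 in IBA and 1.28, 2.38 and 2.98 in Ent. In ET it was 5.71, 3.19 and 4.58, and in LT 9.12 and 4.96. Every cold liver was above every IBA and Ent liver, by 1.26 on the log2 scale or 2.39-fold on average. In SA the ratio was 5.13, 3.96 and 7.11, also above every IBA and Ent liver. This comparison was chosen after the values were seen and is given without a test. With each library left out in turn the log2 difference between the cold livers and the IBA and Ent livers stayed between 1.05 and 1.43.

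**Figure D3:**
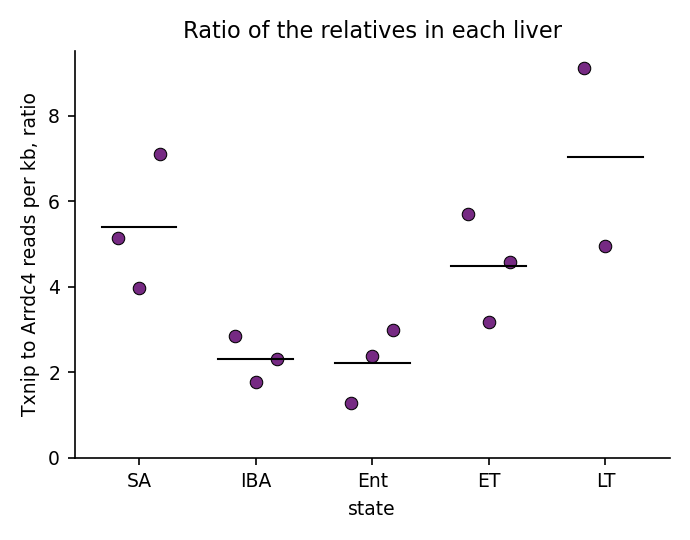
Ratio of Txnip to Arrdc4 reads per kb of unit in each liver, on a linear axis from 0, with a bar for the state mean. The IBA and Ent livers lie between 1.28 and 2.98, and the SA, ET and LT livers between 3.19 and 9.12.

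The nearest units were looked at for each member. On its upstream side Arrdc3 had a merged unit of Ttc37 3550 kb away, and downstream a merged unit of Adgrv1 153 kb away on the opposite strand. The Adgrv1 unit was at 224 ± 114 CPM (SD, n = 3) in IBA and 205 ± 34.6 CPM (SD, n = 3) in Ent, with a log2 fold change of -0.12 (SE 0.37, adjusted p = 0.853). The Ttc37 unit had a log2 fold change of -0.70 (SE 0.15, adjusted p = 0.0102) at the same step.

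Txnip is in a denser region. The gene Polr3gl, a subunit of RNA polymerase III, lies 8.82 kb beyond its 3′ end on the opposite strand. Polr3gl was at 33.7 ± 2.54 CPM in SA, 22.9 ± 3.23 in IBA, 26.2 ± 4.55 in Ent, 26.2 ± 4.82 in ET (SD of 3 livers each) and 24.8 ± 5.35 in LT (SD, n = 2). From LT to IBA its log2 fold change was -0.12 (SE 0.23, adjusted p = 0.696). Since units were trimmed just downstream of their start sites, gaps at 5′ ends are not distances between start sites. A merged unit of LINC01783 and tRNA genes begins 1.24 kb from the 5′ end of the Txnip unit, also on the opposite strand. Its mean CPM was 142 ± 18.3 in SA, 125 ± 6.88 in IBA, 107 ± 40.7 in Ent, 61.4 ± 26.7 in ET (SD of 3 livers each), with 68.2 ± 11.3 in the pair of LT livers (SD, n = 2). From LT to IBA it had a log2 fold change of 0.88 (SE 0.37, adjusted p = 0.0674). Arrdc4 had no unit within 1120 kb, where Lrrc28 lies downstream, and a merged unit of LINC01578 and Chd2 lay 4400 kb upstream.

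The units with a pattern most like that of Arrdc3 were found by the root mean square difference of log2 CPM over the 14 libraries, after each unit was centred on its own mean. Over the other 4704 single-gene units the median difference was 1.77. Among the nearest were Kcnj8, the pore of an ATP-sensitive potassium channel (0.72), Zscan2, a zinc finger protein (0.75), Ranbp3l, a Ran-binding protein (0.76), and Gys2, the liver glycogen synthase (0.78). The nearness is over libraries that share their depth and state, and is a description.

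The mean CPM of Gys2 was 472 ± 175 in SA, 354 ± 126 in IBA, 134 ± 11.1 in Ent, 34.9 ± 7.28 in ET (SD of 3 livers each), with 32.3 ± 0.49 in the pair of LT livers (SD, n = 2). Kcnj8 was at 122 ± 86.2 CPM in SA, 162 ± 35.0 in IBA, 52.8 ± 7.39 in Ent, 12.0 ± 1.62 in ET and 12.4 ± 4.24 in LT, with the same numbers of livers. Both lie on the plus strand of Itri4, Kcnj8 from 87203196 to 87211743 and Gys2 from 87333798 to 87386872. These 4 units, like Arrdc3, were lower in Ent than in IBA in their means and lower again in ET. They were picked for likeness to Arrdc3 over these same libraries, so this is not a separate result. Among the 4704 units Arrdc4 ranked 196 (1.197) and Txnip 304 (1.28) in likeness to Arrdc3.

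**Figure D4:**
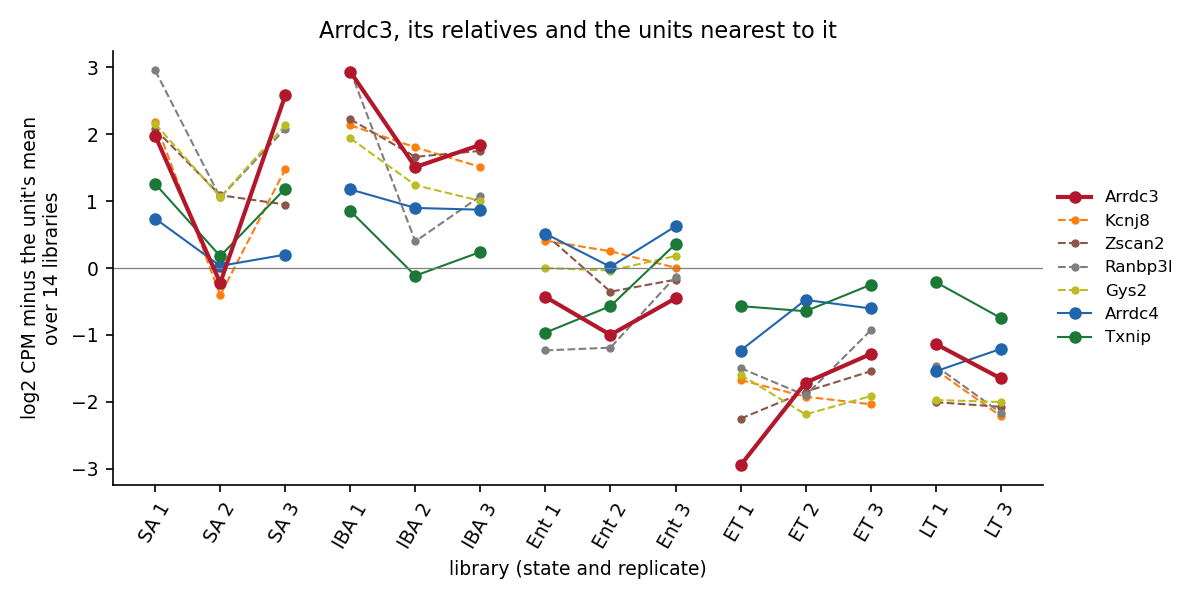
Log2 CPM of Arrdc3, of 4 of the units most like it and of Arrdc4 and Txnip in each library, centred on the unit's own mean over the 14 libraries, with points joined within a state. Arrdc3 and these 4 units are above their means in every IBA library and below them in every ET and LT library, and Txnip spans the narrowest range among the members.

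Genes linked to these proteins by partner, pathway or name were taken from 7 lists with 85 names, alternative symbols included, of which 43 had a unit of their own. Among the 5 states 29 of the 43 were called, beside 62.0% of all units. From IBA to Ent, 3 were higher and 5 lower, against 8.76% of all units called higher and 7.34% called lower. The total of 8 moved to between 3 and 13 when single libraries were left out. It was 3 without IBA replicate 1, IBA replicate 3 or Ent replicate 3, 4 without IBA replicate 2 or Ent replicate 2, 5 without ET replicate 3 and 13 without SA replicate 2. In IBA, 12 were called higher than in LT and 8 lower, against 25.0% and 24.8% of all units. With season as a term, 6 were called from IBA to Ent and 15 from LT to IBA in all. The median log2 fold change of the 43 from LT to IBA was 0.31, beside 0.05 over all units.

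Of the glucose-sensing factors and their usual liver targets, 6 had a unit of their own and 4 were called among the states, beside 62.0% of all units. Mlx, Mlxipl (ChREBP) and Pklr were merged with neighbors and gave no value. The median log2 fold change of the 6 from LT to IBA was 1.77. These 4 genes rose from LT to IBA, where 25.0% of all units were called higher. The other members, Mlxip (-0.065, adjusted p = 0.775) and Gckr (1.05, adjusted p = 0.0872), were not called and are named after their values were seen. Khk, the fructose kinase, rose by 2.01 on the log2 scale (SE 0.28, adjusted p = 0.00013), and Tkfc, which acts later in fructose breakdown, by 1.53 (adjusted p = 0.0035). G6pc, which releases free glucose, rose by 3.62 (adjusted p = 0.00031). Fgf21, a fasting hormone, rose by 4.07 (SE 1.16, adjusted p = 0.0116), from a mean of 4.09 CPM in LT. At entrance Khk fell by 1.24 on the log2 scale (adjusted p = 0.0062) and Tkfc fell by 1.33 (adjusted p = 0.0137). G6pc had -0.79 (adjusted p = 0.241) at that step. Fgf21 had -0.80 (SE 0.83, adjusted p = 0.538), and its livers overlapped.

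Among 8 glucocorticoid and FoxO factors and targets with a unit, 6 were called among the states, beside 62.0% of all units. Of the 8, 2 rose and 3 fell from LT to IBA, where 25.0% of all units were called higher and 24.8% lower. Pck1 and Igfbp1, targets of FoxO1 in the fasting liver, rose from LT to IBA by 3.15 (adjusted p = 0.00049) and 4.87 (adjusted p = 0.0015) on the log2 scale. Those that fell were Foxo1, Klf9 (-0.98, adjusted p = 0.0075) and Irs2 (-0.94, adjusted p = 0.0388), the latter pair named after their values were seen. Foxo1 went from 1559 ± 267 CPM (SD, n = 2) in LT to 463 ± 19.3 CPM (SD, n = 3) in IBA (adjusted p = 0.0015), and at entrance it rose by 1.10 on the log2 scale (adjusted p = 0.0374). From SA to IBA, Foxo3 fell by 0.99 on the log2 scale (adjusted p = 0.0203).

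The cargo list held 8 genes with a unit, of which 6 were called among the states, beside 62.0% of all units. The glucose transporter genes moved in opposite directions from LT to IBA, where Slc2a2 rose by 2.02 on the log2 scale (adjusted p = 0.00016). Slc2a2, the main hepatocyte glucose transporter GLUT2, had mean CPM of 1595 ± 132 in IBA, 923 ± 239 in Ent (SD of 3 livers each), with 392 ± 39.3 in the pair of LT livers (SD, n = 2), and at entrance it fell by 0.79 on the log2 scale (adjusted p = 0.0449). Slc2a1, which encodes GLUT1, the cargo of Txnip and Arrdc4, was at 29.2 ± 1.49 CPM (SD, n = 3) in IBA and 92.1 ± 6.01 CPM (SD, n = 2) in LT, and from LT to IBA it fell by 1.65 on the log2 scale (adjusted p = 0.0072). At entrance Slc2a1 had a log2 fold change of 0.55 (adjusted p = 0.363), and the livers overlapped. Tfrc, the transferrin receptor, fell by 0.87 on the log2 scale at entrance (adjusted p = 0.0319), and Insr, the insulin receptor, differed among the states (adjusted p = 0.0063).

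Of the NEDD4-family ligases and their adaptors, 5 had a unit and 3 were called among the states, beside 62.0% of all units. Ndfip1, a membrane adaptor that activates these ligases, was higher in the cold. Its mean CPM was 187 ± 10.96 in IBA, 261 ± 52.9 in Ent, 381 ± 12.6 in ET (SD of 3 livers each), with 413 ± 41.6 in the pair of LT livers (SD, n = 2), and from LT to IBA it fell by 1.14 on the log2 scale (adjusted p = 0.00017). The ligase Wwp2 rose from SA to IBA by 0.68 (adjusted p = 0.0113). The ligase Nedd4l differed among the states (adjusted p = 0.0118). Wwp1, a ligase known to bind alpha-arrestins, had an adjusted p of 0.0745 among the states and 0.0476 from LT to IBA, where its log2 fold change was 1.06.

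All 7 genes of the thioredoxin list with a unit were called among the states, beside 62.0% of all units. The list also holds Txnl1 and Txnl4a, which are thioredoxin-like by name, and their link to Txnip was not tested. Txnl1, a thioredoxin-like protein, was at 112 ± 9.56 CPM (SD, n = 3) in IBA and 290 ± 37.9 CPM (SD, n = 2) in LT, and rose from IBA to Ent by 0.66 on the log2 scale (adjusted p = 0.0096). Txnrd2, the mitochondrial thioredoxin reductase, fell by 0.62 at the same step (adjusted p = 0.0241). Txn, the cytosolic partner of Txnip, was at 53.0 ± 12.5 CPM (SD, n = 3) in SA and 26.9 ± 4.89 CPM (SD, n = 2) in LT, and differed among the states (adjusted p = 0.0143). The peroxidase Prdx3 also differed among the states (adjusted p = 0.0178).

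In the remaining lists, 1 of 2 and 2 of 7 genes were called among the states, beside 62.0% of all units. Of the other arrestin-fold proteins, 2 had a unit. Dscr3, a retromer-like subunit, had mean CPM of 73.0 ± 0.57 in IBA, 60.3 ± 0.49 in Ent, 37.1 ± 2.80 in ET (SD of 3 livers each), with 34.8 ± 4.74 in the pair of LT livers (SD, n = 2), and from Ent to ET it fell by 0.70 on the log2 scale (adjusted p = 0.0019). Arrb1, beta-arrestin 1, had an adjusted p of 0.290 among the states. Of 7 ESCRT genes, which pinch off the vesicles made with Arrdc1, Vps4b (adjusted p = 0.0072) and Tsg101 (adjusted p = 0.0434) were called among the states, and Stam2 (0.0719) and Vps37a (0.135) were not. Stam2 rose by 0.49 on the log2 scale from LT to IBA (adjusted p = 0.0122).

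**Figure D5:**
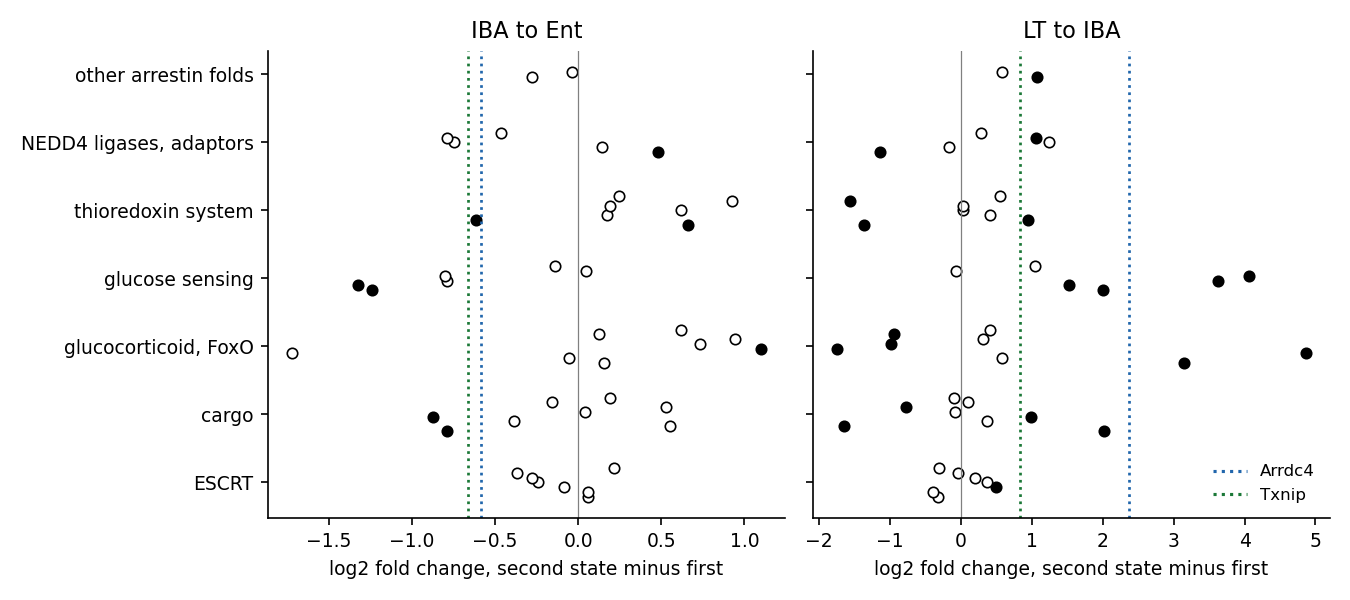
Log2 fold change of each listed gene with a unit of its own from IBA to Ent (left) and from LT to IBA (right), second state minus first, by list, with filled points for adjusted p at or under 0.05 and dotted lines for Arrdc4 and Txnip. From LT to IBA the 4 filled glucose-sensing genes lie between 1.53 and 4.07, whereas the filled cargo genes lie on both sides of 0.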

How the data were processed

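GRO-seq reads were trimmed with cutadapt, aligned to HiC_Itri_2 with BWA and counted with featureCounts by the authors, on gene bodies redefined from the same reads with fstitch. Replicates were not pooled, and the deposited values are raw counts per unit and library, without normalization. Counts were fitted here in edgeR 4.0.16 (R 4.3.3) with TMM library sizes and 1 quasi-likelihood model of the 5 states over 14 libraries and all 6324 units, without a filter. Benjamini-Hochberg adjustment ran over the whole table, and an adjusted p of 0.05 or less was called, where the study used 0.001. Log2 CPM used a prior count of 2. Figures were drawn with matplotlib 3.10.9. The members and lists were chosen with earlier results of these data known. Named were the members, up to 4 units per list with the smallest p among the states, the nearest units and the 5 units most like Arrdc3, of which 1 is not reported here. The alternatives were DESeq2 1.42.0, upper-quartile scaling, uniquely mapped reads as library size, a minimum of 10 counts in every library, the threshold of 0.001, a block for the replicate number, a term for season, and fits without single libraries. In simulated counts for LT against IBA over 6324 units, 54 of 100 2-fold and 98 of 100 4-fold changes were recovered, with 6 false calls. Only 200 units were changed there, whereas 3151 were called in the real comparison, so that these numbers do not give its power or error. Replicates differed beyond sampling noise. Season was taken from the study's animal records, and sequences were not analysed here.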

Additional observations from a re-analysis of the deposited data

How the results depend on the processing

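The 3 tested comparisons of Arrdc3 and the 10 of Arrdc4 kept their direction and side of the 0.05 threshold under DESeq2, both other scalings and the count minimum, and with each library left out, except for the sign of Arrdc4 from SA to Ent (-0.082 to 0.29). The untested Arrdc3 differences, rerun after the data were seen, kept their sign under all of these except from SA to IBA with libraries left out (-0.16 to 0.97). Scaling by uniquely mapped reads moved the median of all units to 0.14 from IBA to Ent, -0.14 from LT to IBA and 0.24 from SA to ET. At the threshold of 0.001, 1612 of the 6324 units were called among the states, against 3924 at 0.05. Counts over all units at 0.001 were not made for pairs of states. At 0.001 the 2 relatives gave 1 call among the states, 0 from Ent to ET, 0 from SA to Ent, 0 from SA to ET, 1 from SA to LT and 0 from Ent to LT. The 43 listed genes then gave 10 calls among the states, 0 from IBA to Ent and 7 from LT to IBA. Arrdc3 from SA to LT (-3.22) was not called. DESeq2 called 2 relatives from IBA to ET, and season as a covariate left 1 from SA to LT. Fits with season could not be made for comparisons with ET or among all states. With libraries left out, relatives called ranged from 0 to 1 from SA to Ent, 1 to 2 from SA to LT and 1 to 2 from IBA to ET, and listed genes called from IBA to Ent from 3 to 13.

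The Txnip value from ET to LT was near 0, at -0.016 with upper-quartile scaling, -0.061 with uniquely mapped reads and -0.27 to 0.27 with libraries left out. With libraries left out it ranged from -0.47 to 0.30 from Ent to LT, above 0 without Ent replicate 3 (0.30) or LT replicate 3 (0.072), and from -0.45 to 0.28 from Ent to ET, above 0 without Ent replicate 3 alone. The cause of these moves was not tested.

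Same-numbered libraries did not pair, since the correlations of their deviations ran from -0.26 to 0.23 and 3 of 14 libraries correlated best with their own number. With the replicate block the 2 relatives were both called from LT to IBA (2) and from IBA to ET (2), where Txnip had adjusted p = 0.0483 and 0.0496, and Txnip from ET to LT was -0.17. The block changed no other call of the members, and the units called among the states went from 3924 to 3674.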
